A study of Mus musculus with 6 samples.

Results

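Genes of the MHC class I presentation pathway were followed in kidney endothelial cells (ECs). The set held 10 genes, chosen by name from the 55401 genes of the deposited count table: the heavy chain genes H2-K1, H2-D1, H2-Q4 and H2-T23, the light chain gene B2m, the peptide transport and loading genes Tap1, Tap2 and Tapbp, the immunoproteasome gene Psmb8 and the transactivator gene Nlrc5. All 10 passed the filter on low counts and were compared between mice labelled RbpjΔEC and controls (CTRL). With edgeR's quasi-likelihood test and a Benjamini-Hochberg adjusted p below 0.05, 0 of the 10 were higher and 0 were lower in RbpjΔEC, while 1.13% of all 18438 tested genes passed in either direction. At an unadjusted p below 0.05 it was 0 higher and 1 lower, B2m, where 8.88% of all tested genes were higher and 8.62% lower. That count was 2 higher and 1 lower without CTRL 2, 1 higher and 1 lower without RbpjΔEC 3, with library size alone or with no low-count filter, and 0 higher and 3 lower without RbpjΔEC 2. The shares of all genes at an unadjusted p in those fits are not given here. The number of all genes past the adjusted threshold moved as well. From 209 it went to 700 without CTRL 2, 521 without RbpjΔEC 3, 241 with library size alone and 48 without RbpjΔEC 2. With no low-count filter it was 1436 of 38324 genes. DESeq2 called 1 member lower, again B2m, where it called 322 of 38324 genes lower, and limma-voom called 0. The differences of the members, as log2 fold changes of RbpjΔEC against CTRL, lay between -0.30 for B2m and 0.17 for H2-Q4, 4 above 0 and 6 below, with a median of -0.04 beside 0.01 over all tested genes.

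MHC class I molecules display peptides from inside the cell to CD8 T cells and to receptors on natural killer cells. The proteasome cuts cytosolic proteins, the Tap1 and Tap2 transporter carries the peptides into the endoplasmic reticulum (ER), and the chaperone tapasin (Tapbp) helps to load them onto a heavy chain paired with beta-2 microglobulin (B2m). Nlrc5, interferons and NF-kB raise transcription of these genes, and ECs, which line the vessels that leukocytes pass, carry class I molecules at rest.

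Both groups carried floxed Rbpj on both chromosomes (Rbpjf/f), and both received 5 doses of 1.5 mg tamoxifen at 8 weeks of age. The 3 RbpjΔEC mice (Cre +/-) also carried Cdh5CreERT2, a tamoxifen-activated recombinase under an endothelial promoter, while the 3 CTRL mice were littermates without it (Cre -/-). Organs were taken 12 weeks after induction, at a labelled age of 21 weeks, and CD31+ CD45- cells were sorted from the kidneys of these male mice, with 1 RNA-seq library per mouse. The Notch effector gene Rbpj itself was at 28.1, 29.7 and 29.8 CPM (counts scaled to the size of the library with TMM factors) in the CTRL libraries, and at 28.9, 26.1 and 29.6 CPM in the RbpjΔEC libraries, so the counts over the whole gene do not separate the groups. Hey1, a Notch target gene, had 16.7, 19.9 and 22.6 CPM in CTRL and 11.5, 8.92 and 14.6 CPM in RbpjΔEC, without overlap (log2 fold change -0.76, edgeR quasi-likelihood test, Benjamini-Hochberg adjusted p = 0.0722).

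Total counts per library were between 39649171 and 47726850, and the members took between 0.456% and 0.550% of them. A count of 3, taken as the detection floor, was at most 0.0749 CPM, far below every member. Counts fell on 33764 genes in CTRL 1 and on 25629 to 26785 genes in each other library. The 10 endothelial markers were all tested and summed to 16661 ± 836 CPM in CTRL and 14799 ± 471 CPM in RbpjΔEC (SD, n = 3 each). Marker genes of other kidney cells were detected: mural markers summed to 90.2 ± 13.4 CPM in CTRL and 43.4 ± 9.42 CPM in RbpjΔEC, with 3 of 7 called lower (Acta2, Myh11 and Rgs5). Stroma markers summed to 6.10 ± 1.30 and 2.02 ± 0.781 CPM, with 1 of 3 tested called lower (Pdgfra), where 0.559% of all tested genes were called lower. With each library left out, the calls ranged from 0 to 6 for mural and from 0 to 2 for stroma markers, with 0 in both lists without CTRL 1 or without RbpjΔEC 1, and 0 for stroma also without CTRL 3 or without RbpjΔEC 2. Tubule markers summed to between 279 and 419 CPM in CTRL and between 104 and 384 CPM in RbpjΔEC, with 5 of 8 below 0, 3 above (Lrp2, Slc34a1 and Cubn, each highest in RbpjΔEC 3) and 0 called by edgeR, 0 higher and 3 lower at an unadjusted p below 0.05. In bulk RNA, fewer cells of a type and less RNA per cell cannot be told apart.

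H2-K1 and H2-D1 encode the classical class I heavy chains, which present peptides to CD8 T cells. H2-K1 (ENSMUSG00000061232.16; GRCm38 chr17:33996017-34000347, minus strand) had 1193, 1193 and 1069 CPM in the CTRL libraries (1 to 3, in this order throughout) and 1152, 1307 and 1060.3 CPM in the RbpjΔEC libraries. The groups overlapped, with the highest and the lowest library both in RbpjΔEC. The means were 1152 ± 71.5 and 1173 ± 125 CPM (SD, n = 3 each), and the log2 fold change was 0.03 (95% interval -0.17 to 0.22, edgeR quasi-likelihood test, Benjamini-Hochberg adjusted p = 0.907). The sign of H2-K1 turned to -0.026 without CTRL 3 and to -0.058 without RbpjΔEC 2.
H2-D1 (ENSMUSG00000073411.12; chr17:35262730-35267499, plus strand) had 1610.3, 1550.2 and 1491 CPM in CTRL and 1411, 1586 and 1303 CPM in RbpjΔEC. Only RbpjΔEC 2 reached the CTRL range, and RbpjΔEC 1 and 3 lay below every control. The log2 fold change of H2-D1 was -0.11 (95% interval -0.30 to 0.07, edgeR quasi-likelihood test, Benjamini-Hochberg adjusted p = 0.520). It was -0.19 without RbpjΔEC 2 and -0.05 without RbpjΔEC 3. The intervals of these classical genes leave out a change of 1 log2 unit in either direction.

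H2-Q4 and H2-T23 encode nonclassical heavy chains. The protein of H2-T23, Qa-1, presents leader peptides of other class I chains to inhibitory receptors of natural killer cells. H2-Q4 (ENSMUSG00000035929.11; chr17:35379617-35385290, plus strand) had 349, 365 and 322 CPM in CTRL and 388, 427 and 352 CPM in RbpjΔEC. The difference of H2-Q4 was the highest among the members, but RbpjΔEC 3 lay below CTRL 2, so the groups overlapped. Its log2 fold change was 0.17 (95% interval -0.01 to 0.35, edgeR quasi-likelihood test, Benjamini-Hochberg adjusted p = 0.316), and 0.10 without RbpjΔEC 2.
H2-T23 (ENSMUSG00000067212.8; chr17:36029773-36032855, minus strand) had 212, 202 and 215 CPM in CTRL, a narrow range, and 189, 212 and 165 CPM in RbpjΔEC. RbpjΔEC 1 and 3 were below all controls and RbpjΔEC 2 was inside their range. The log2 fold change of H2-T23 was -0.15 (95% interval -0.34 to 0.04, edgeR quasi-likelihood test, Benjamini-Hochberg adjusted p = 0.402). It was -0.24 without RbpjΔEC 2 and -0.06 without RbpjΔEC 3.

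B2m encodes the light chain that pairs with class I heavy chains. It lies outside the MHC, on chromosome 2 (ENSMUSG00000060802.8; GRCm38 chr2:122147686-122153083, plus strand). B2m had 1185, 1067 and 1089 CPM in CTRL and 872, 1003 and 837 CPM in RbpjΔEC. Every RbpjΔEC library lay below every CTRL library, and B2m was the only one of the 10 members whose groups did not overlap, where 11.6% of all tested genes were lower and 11.4% higher without overlap. The means were 1114 ± 62.4 and 903.7 ± 87.5 CPM (SD, n = 3 each), a fold of 0.811 and a log2 fold change of -0.30 (standard error 0.0850, 95% interval -0.49 to -0.12). In edgeR's quasi-likelihood test the Benjamini-Hochberg adjusted p of B2m was 0.103 (0.00408 before adjustment), which did not pass 0.05. DESeq2's Wald test gave B2m the same log2 fold change of -0.30 with an adjusted p of 0.0455, and limma-voom gave an adjusted p of 0.0905. Leaving out each library in turn, the log2 fold change of B2m lay between -0.38 and -0.25 and its Benjamini-Hochberg adjusted p from edgeR between 0.0682 (without CTRL 2) and 0.333 (without RbpjΔEC 1). Without CTRL 1, the library with counts on the most genes, it was -0.26 (adjusted p = 0.317 from the same edgeR test). Beside B2m, the summed endothelial markers were also lower in each RbpjΔEC library (14284 to 15209 CPM against 15720.0 to 17316 CPM). Of the 10, 6 were below 0 and 4 above on the log2 scale, with 0 called in either direction by edgeR. At an unadjusted p below 0.05, 1 was higher and 2 lower, where 8.88% of all tested genes were higher and 8.62% lower. That count was 0 higher and 5 lower without CTRL 2, and 1 higher and 4 lower without RbpjΔEC 2. DESeq2 called 2 of the endothelial markers lower, where it called 322 of 38324 genes lower. With no low-count filter edgeR called 1 higher and 2 lower, where 717 of 38324 genes were called higher and 719 lower. Kdr, a receptor of VEGF, made up the largest share of the endothelial sum, with 4924 to 6261 CPM in each library. The part of the endothelial markers in the difference of B2m was not tested.

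**Figure D1:**
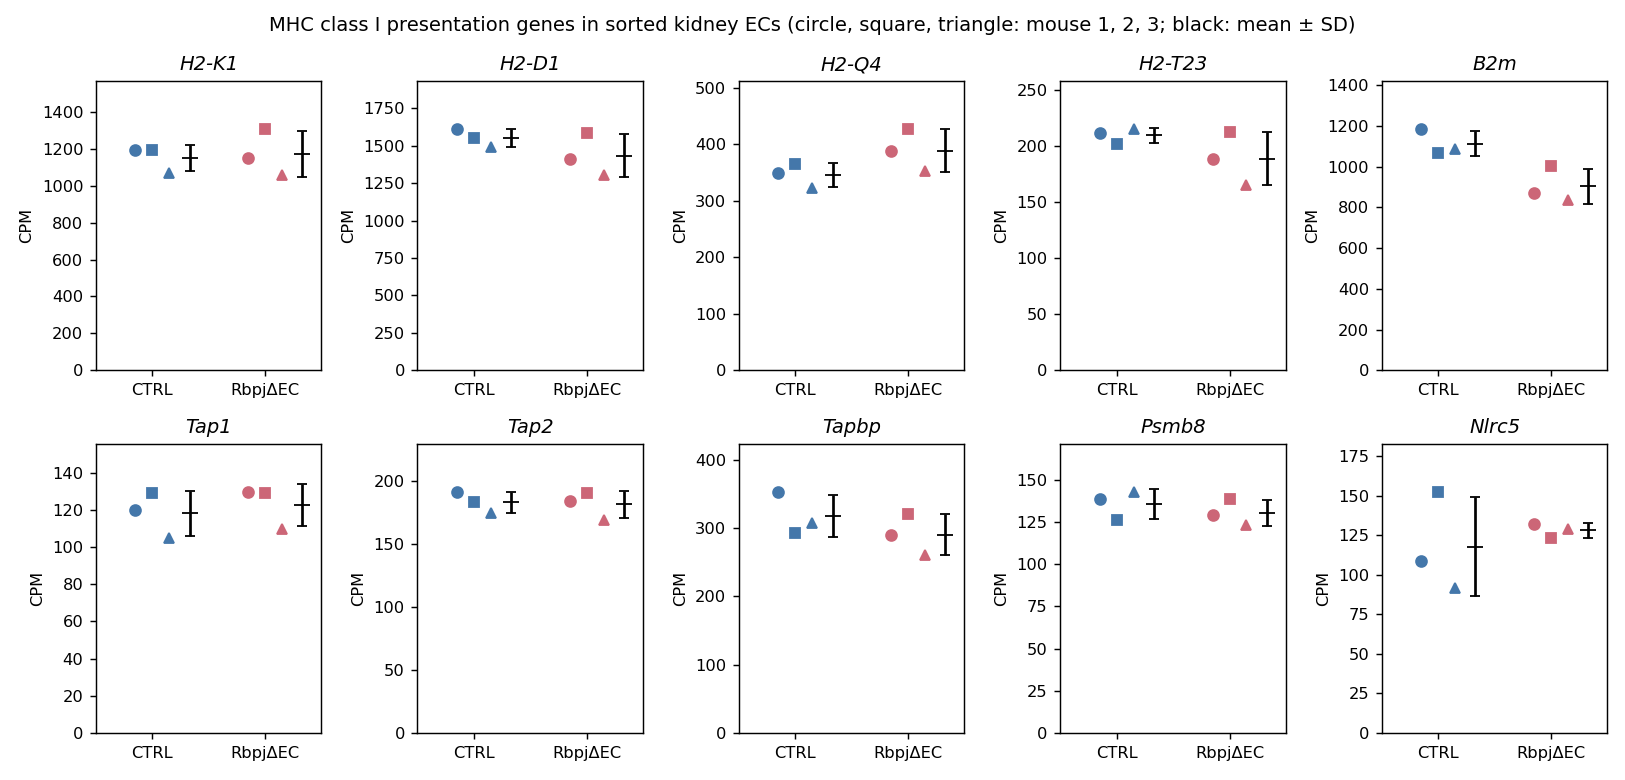
CPM (library-scaled counts, y axis from 0) of each of the 10 genes in the 3 CTRL and 3 RbpjΔEC libraries, 1 point per mouse, with the mean and SD in black. B2m is the gene whose groups do not overlap (1067 to 1185 CPM in CTRL, 837 to 1003 CPM in RbpjΔEC), and for Nlrc5 the CTRL libraries spread from 91.7 to 152 CPM around the RbpjΔEC libraries.

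Sequence before the RefSeq start was read for 8 of the 10 members on GRCm38.p6. RefSeq and GENCODE place some starts differently, so that the windows of H2-D1, Tapbp and Psmb8 lie inside the positions given here for those genes, and all 250 bases of the windows of H2-D1, H2-Q4, Tap1, Tapbp and Psmb8 and 154 of H2-T23 are in exons of GENCODE. Windows of 250 bases were searched on both strands for GGGGATT (the first letters of the NF-kB element of class I promoters), GTTTCAC (the core of their interferon element), GAAA followed after 2 bases by GAAA (an interferon-stimulated response element), TGACG (the core of the X2 box that CREB and ATF factors bind, part of the module through which Nlrc5 acts), CCAAT (the Y box of NF-Y) and TGGGAA (the core that RBPJ binds). Of 32851 windows in RefSeq, 2.761% held the first, 2.116% the second, 2.977% the third, 17.77% the fourth, 33.85% the fifth and 21.59% the sixth. H2-K1, H2-D1 and H2-Q4 each held the first and the second with the same spacing between them, 20 bases from start to start. They are shown because these heavy chain genes have nearly the same upstream element, with the B2m window beside them. Capitals mark matches to the 6 motifs. The H2-K1 window is chr17:34000348-34000597 (minus strand), the H2-D1 stretch chr17:35262923-35262952 (plus strand, within an exon of GENCODE), the H2-Q4 window chr17:35379367-35379616 (plus strand, inside an exon of the antisense gene Gm11131) and the B2m window chr2:122147437-122147686 (plus strand).
H2-K1: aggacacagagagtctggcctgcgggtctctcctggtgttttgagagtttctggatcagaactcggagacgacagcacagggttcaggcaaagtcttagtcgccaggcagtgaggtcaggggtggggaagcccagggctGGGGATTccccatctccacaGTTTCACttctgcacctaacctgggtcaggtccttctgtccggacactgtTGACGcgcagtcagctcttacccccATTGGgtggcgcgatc
H2-D1 element: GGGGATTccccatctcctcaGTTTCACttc
H2-Q4: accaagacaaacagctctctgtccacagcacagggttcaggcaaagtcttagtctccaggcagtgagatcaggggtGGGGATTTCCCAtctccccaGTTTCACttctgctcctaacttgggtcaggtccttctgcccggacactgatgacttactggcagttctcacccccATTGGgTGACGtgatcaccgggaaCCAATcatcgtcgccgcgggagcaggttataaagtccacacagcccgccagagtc
B2m: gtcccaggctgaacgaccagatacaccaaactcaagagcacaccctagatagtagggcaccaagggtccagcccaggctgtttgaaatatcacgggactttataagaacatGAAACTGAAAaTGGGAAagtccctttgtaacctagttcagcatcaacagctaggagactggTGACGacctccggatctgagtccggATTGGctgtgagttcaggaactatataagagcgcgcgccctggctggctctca
In H2-K1 the NF-kB letters began 111 bases before the start and the interferon core 91 bases before it. In H2-D1 they began at 171 and 151 bases, in H2-Q4 at 174 and 154 bases. In H2-Q4 the last base of GGGGATT is also the first of TTCCCA, the reverse complement of the RBPJ core. The B2m window held the paired GAAA at 139 bases and TGGGAA at 128 bases, with neither of the first and second motifs. The H2-T23 window held the paired GAAA on the other strand at 124 bases. TGGGAA or its reverse complement was also found in the windows of Tap1, Tapbp and Psmb8, and these letters were not in the windows of H2-K1, H2-D1 and H2-T23. A match is a run of letters and not a measured binding site, and no binding was measured here.

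Tap1 and Tap2 form the transporter, and Tapbp encodes tapasin. Tap1 (ENSMUSG00000037321.17; chr17:34187553-34197225, plus strand) had 120.1, 129 and 105 CPM in CTRL and 129.6, 129 and 109.5 CPM in RbpjΔEC. Tap2 (ENSMUSG00000024339.12; chr17:34203527-34216321, plus strand) had 191, 183 and 175 CPM in CTRL and 184, 190.3 and 169 CPM in RbpjΔEC. The groups of both transporter genes overlapped over most of their range, and Tap2 had the smallest difference of the 10 members.
The log2 fold change was 0.06 for Tap1 (95% interval -0.15 to 0.26) and -0.01 for Tap2 (95% interval -0.17 to 0.14), with Benjamini-Hochberg adjusted p of 0.794 and 0.946 in edgeR's quasi-likelihood test. Tap1 turned to -0.025 without CTRL 3 and was 0.13 without RbpjΔEC 3. Tap2 stood at 0.030 with library size alone, 0.016 without CTRL 1 and 0.034 without RbpjΔEC 3. Tapbp (ENSMUSG00000024308.15; chr17:33915899-33929292, plus strand) had 353, 293 and 307 CPM in CTRL and 289.5, 321 and 261 CPM in RbpjΔEC. CTRL 1 was the highest library for Tapbp and RbpjΔEC 3 the lowest, with the other 4 mixed. Its log2 fold change was -0.13 (95% interval -0.33 to 0.07, edgeR quasi-likelihood test, Benjamini-Hochberg adjusted p = 0.501), with -0.05 without CTRL 1, -0.06 without RbpjΔEC 3 and -0.21 without RbpjΔEC 2.

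Psmb8 encodes an inducible catalytic subunit that replaces Psmb5 when the immunoproteasome is assembled. Psmb8 (ENSMUSG00000024338.15; chr17:34197721-34201454, plus strand) had 139, 126 and 143 CPM in CTRL and 129, 139 and 123 CPM in RbpjΔEC. The groups overlapped, and the log2 fold change was -0.06 (95% interval -0.22 to 0.11, edgeR quasi-likelihood test, Benjamini-Hochberg adjusted p = 0.729), ranging from -0.12 without CTRL 2 to -0.02 without RbpjΔEC 3. The balance of inducible to constitutive subunits was compared as a ratio of CPM within each library, which is not corrected for gene length and is read only between libraries. Psmb8 to Psmb5 was 21.9 ± 2.97 in CTRL and 22.4 ± 3.74 in RbpjΔEC (SD, n = 3 each, exact permutation test, two-sided, p = 0.8). Psmb9 to Psmb6 was 0.998 ± 0.0614 and 1.10 ± 0.0761 (exact permutation test, p = 0.2), and Psmb10 to Psmb7 was 2.12 ± 0.114 and 2.25 ± 0.117 (exact permutation test, p = 0.3). With 3 ratios compared, the adjusted values from these exact tests were 0.8, 0.45 and 0.45, and the smallest p that 3 libraries against 3 allow is 0.1. The difference in the Psmb8 to Psmb5 ratio, 0.44, ran from -1.70 without RbpjΔEC 1 to 2.12 without CTRL 2 and was also below 0 without CTRL 1 or CTRL 3. Those in the Psmb9 to Psmb6 and Psmb10 to Psmb7 ratios, 0.105 and 0.126, ran from 0.0636 (without RbpjΔEC 1) to 0.138 (without RbpjΔEC 3) and from 0.0589 (without RbpjΔEC 1) to 0.191 (without CTRL 1).

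Nlrc5 encodes the transactivator of class I genes. Nlrc5 (ENSMUSG00000074151.13; chr8:94434356-94527272, plus strand) had 109, 152 and 91.7 CPM in CTRL and 132, 123 and 129 CPM in RbpjΔEC. The control libraries lay on both sides of the RbpjΔEC libraries, with a SD of 31.3 CPM in CTRL against 4.60 CPM in RbpjΔEC. The log2 fold change was 0.12 with the widest interval of the members (-0.30 to 0.54, edgeR quasi-likelihood test, Benjamini-Hochberg adjusted p = 0.767). The value rested on single controls: without CTRL 2 the log2 fold change of Nlrc5 was 0.35 (adjusted p = 0.0533 from the same edgeR test), without CTRL 1 it was 0.07, and without CTRL 3 it was -0.03.

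**Figure D2:**
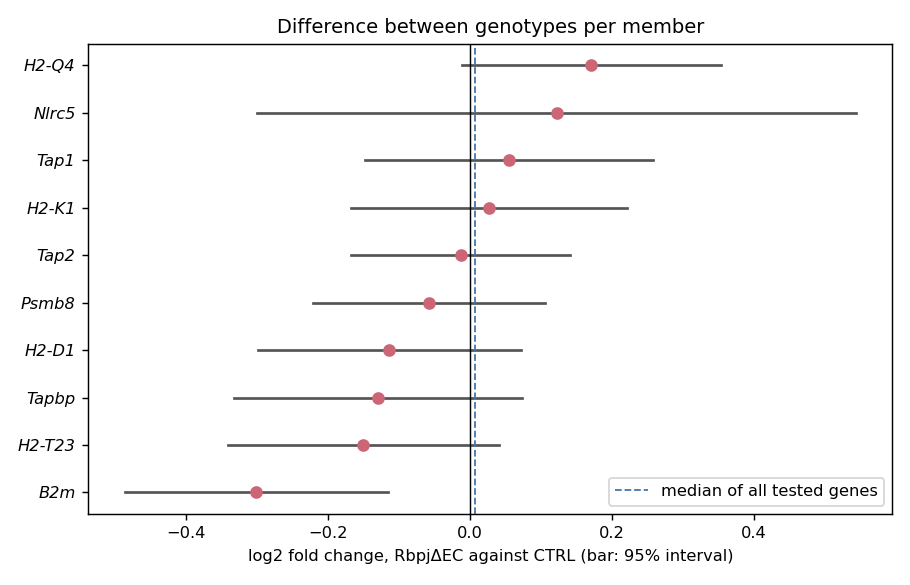
Log2 fold change of RbpjΔEC against CTRL for each of the 10 genes (x axis, log2 units), with the 95% interval as a bar and the median of all tested genes (0.01) as a dashed line. Every interval except that of B2m (-0.49 to -0.12) reaches 0, and that of Nlrc5 (-0.30 to 0.54) is the widest.

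Differences between libraries of 1 group were shared by most members. Relative to the CTRL mean of each gene, the median over the 10 members was 0.04, 0.00 and -0.06 on the log2 scale in the CTRL libraries and -0.04, 0.05 and -0.13 in those of RbpjΔEC. RbpjΔEC 3 was the lowest of the 6 libraries for H2-K1, H2-D1, H2-T23, B2m, Tap2, Tapbp and Psmb8, and RbpjΔEC 2 the highest for H2-K1 and H2-Q4. The summed CPM of the 10 members was 5243 ± 227 in CTRL and 4940.3 ± 467 in RbpjΔEC (SD, n = 3 each), with overlapping groups.

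Because heavy chain and light chain work as a pair, counts were also set against those of H2-D1 in the same library, a step chosen after the values were seen and given with no test. B2m to H2-D1 was 0.736, 0.689 and 0.730 in CTRL and 0.618, 0.632 and 0.642 in RbpjΔEC. H2-Q4 to H2-D1 was 0.217, 0.235 and 0.216 in CTRL and 0.275, 0.269 and 0.270 in RbpjΔEC. H2-K1 to H2-D1 was 0.741, 0.769 and 0.717 in CTRL and 0.816, 0.824 and 0.814 in RbpjΔEC. The RbpjΔEC libraries lay close together in each of these ratios, below the controls for B2m and above them for H2-Q4 and H2-K1. Of the 9 other members, 3 (H2-K1, H2-Q4 and Tap2) were higher relative to H2-D1 with no overlap, 1 (B2m) was lower and 5 overlapped, where 16.2% of all tested genes but H2-D1 were higher and 3.55% lower with no overlap. The Tap2 ratio was at most 0.119 in CTRL and at least 0.120 in RbpjΔEC, nearly touching. B2m relative to the sum of H2-K1 and H2-D1 was 0.423, 0.389 and 0.425 in CTRL and 0.340, 0.347 and 0.354 in RbpjΔEC, so the groups did not overlap against both classical chains either.

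**Figure D3:**
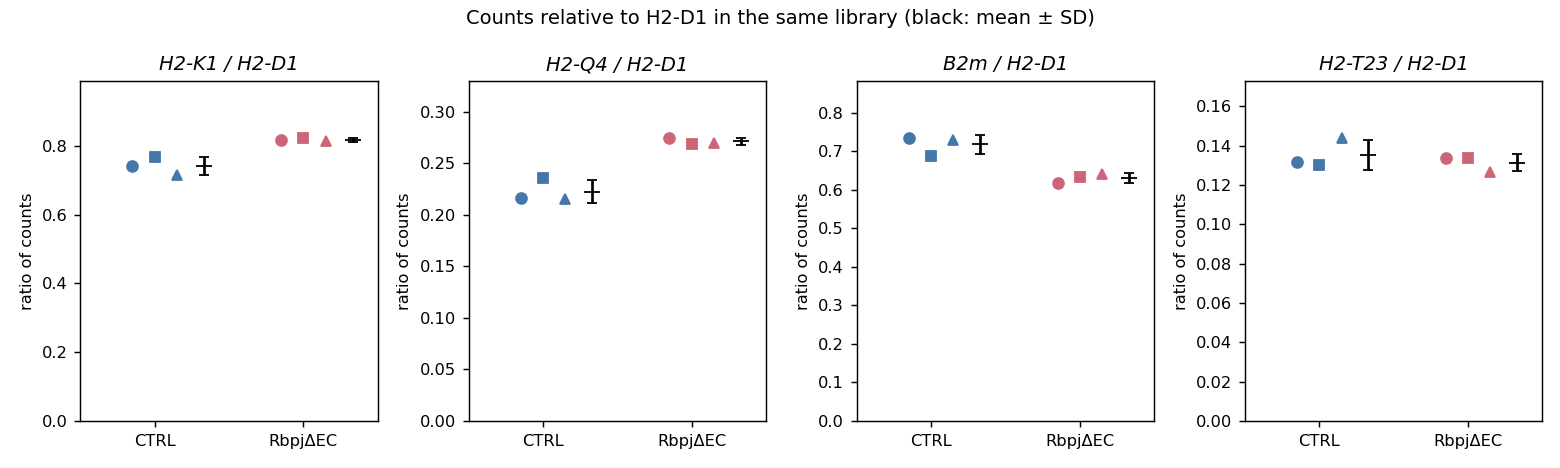
Counts of H2-K1, H2-Q4, B2m and H2-T23 divided by the counts of H2-D1 in the same library (y axis from 0, no unit, not corrected for length), 1 point per mouse, with the mean and SD in black. The ratios of H2-K1 and H2-Q4 are higher and that of B2m lower in all 3 RbpjΔEC libraries, while that of H2-T23 overlaps (0.130 to 0.144 in CTRL, 0.127 to 0.134 in RbpjΔEC).

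Levels of different genes were compared only per length, as TMM-scaled CPM per kilobase of exon over the 6 libraries. B2m was the highest with 1173 CPM per kilobase (range 973 to 1378), followed by H2-D1 with 578 (505 to 624), H2-K1 with 396 (361 to 445) and H2-Q4 with 141 (124 to 164). Tapbp with 83.8 CPM per kilobase (71.9 to 97.2) and H2-T23 with 68.9 (57.1 to 74.4) came next, and they are the only neighbours in this order whose ranges over the 6 libraries overlapped. Tap2 with 48.2, Psmb8 with 39.4, Tap1 with 21.99 and Nlrc5 with 14.5 CPM per kilobase followed.
Heavy chain genes are near copies of each other, and their counts are uncertain to that extent. Of the 38-base words in the transcripts of H2-Q4, 46.0% also occur, on either strand, in transcripts of other genes. The largest share, 16.27%, was with Gm11131, an antisense gene that overlaps exons of H2-Q4. The 46.0% is therefore not likeness to other heavy chains alone. The percentage was 20.9% for H2-T23, 20.3% for H2-D1 (10.03% shared with H2-K1), 16.1% for H2-K1 and 0% for B2m. Exons of Tap1, Tap2, Tapbp, Psmb8, Nlrc5 and H2-Q4 overlap antisense genes (78 bases for Nlrc5 up to 904 bases for Tapbp), and the strand setting of the counting is not given in the sources used here.

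The other class I heavy chain genes of the MHC were taken as a list of 23, of which 12 were tested, 8 were under the filter and 3 (H2-Q8, H2-Q9 and H2-T9) were not analysed here. Of the 12, 7 were above 0 and 5 below, with a median log2 fold change of 0.09 (0.20 without CTRL 2, 0.02 without CTRL 3). In edgeR's test 0 passed the adjusted threshold, and 2 were higher at an unadjusted p below 0.05, where 8.88% of all tested genes were. The 2 became 3 without CTRL 2 and 1 without CTRL 1, CTRL 3, RbpjΔEC 1 or RbpjΔEC 2. DESeq2, the fit with no low-count filter and edgeR without CTRL 2 or without RbpjΔEC 3 each called 1 gene of the list higher. Over all genes those fits called 262, 717, 401 and 188 higher. H2-Q5, a Q-region gene, had 35.6, 49.7 and 34.8 CPM in CTRL and 62.8, 61.6 and 47.4 CPM in RbpjΔEC. The overlap came from CTRL 2 and RbpjΔEC 3, and the log2 fold change was 0.52 (edgeR quasi-likelihood test, Benjamini-Hochberg adjusted p = 0.158). H2-T10 stood at 0.30 (adjusted p = 0.242) and H2-T24 at -0.14 (adjusted p = 0.300) in the same edgeR test. For H2-Q5, 49.7% of the 38-base words are shared with other genes, and for H2-T10 59.0%. Of 7 class I-like genes outside the MHC, 4 were above 0 and 3 below, with 0 past the adjusted threshold. At an unadjusted p below 0.05, 1 was higher, Cd1d2 (0.885 ± 0.248 and 1.58 ± 0.563 CPM, SD, n = 3 each). Between Tapbp and H2-T23 the MHC (chr17:33915899-36032855) held 133 tested genes, 84 above 0 and 49 below (9419 above and 9019 below over all 18438). Of these, 1 was called, the collagen receptor gene Ddr1 (log2 fold change -1.33, edgeR quasi-likelihood test, Benjamini-Hochberg adjusted p = 0.0273), and 33 did not overlap. Over all tested genes 1.13% were called, and 11.4% were higher and 11.6% lower without overlap.

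Of 10 genes that trim and load peptides in the ER, 9 were below 0 and 1 above, with a median of -0.18 and with 5 lower at an unadjusted p below 0.05 (8.62% of all tested genes). That count was 8 without CTRL 2, 7 without RbpjΔEC 2 and 3 without any other library or with library size alone. Pdia3, the disulfide isomerase bound to tapasin in the loading complex, had 385, 356 and 409 CPM in CTRL and 289, 316 and 288 CPM in RbpjΔEC. Every RbpjΔEC library was below every control, and Pdia3 fell by 0.36 on the log2 scale (edgeR quasi-likelihood test, Benjamini-Hochberg adjusted p = 0.0459). It was the only gene of this list called, 1 lower of 10, where 0.559% of all tested genes were called lower. With each library left out, the Benjamini-Hochberg adjusted p of Pdia3 from edgeR was between 0.0188 and 0.198, and it passed only without CTRL 2. It was 0.0612 with scaling to library size alone and 0.0507 under limma-voom.
Canx, the chaperone calnexin that holds newly made heavy chains, had 462, 412 and 438 CPM in CTRL and 348, 374 and 359 CPM in RbpjΔEC, also without overlap. Its log2 fold change was -0.28 (edgeR quasi-likelihood test, Benjamini-Hochberg adjusted p = 0.0820). Canx passed with DESeq2 (adjusted p = 0.0286), and in edgeR with no low-count filter (0.0131) and without CTRL 2 (0.0370), while without another library its Benjamini-Hochberg adjusted p was up to 0.296. Erap1, the aminopeptidase that trims peptides, stood at -0.22 and Bcap31, an export factor of class I molecules, at -0.26, with adjusted p of 0.208 and 0.151 in the same edgeR test. Calr, which encodes calreticulin, had 521 ± 14.7 and 480.5 ± 48.9 CPM (SD, n = 3 each).

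Of the 5 immunoproteasome partners, Psmb9, Psmb10, Psme1, Psme2 and Pomp, 1 was above 0 and 4 below, with a median of -0.06, and 0 passed at an adjusted or an unadjusted p under 0.05 in edgeR's test. Of 16 constitutive proteasome genes, 13 were below 0 and 3 above, with a median of -0.09 and 0 called. Psma6, a subunit of the outer ring, was the 1 gene lower at an unadjusted p below 0.05, with 36.7 ± 4.55 and 30.2 ± 1.46 CPM (SD, n = 3 each). Without CTRL 2, 4 of the 16 were lower at an unadjusted p below 0.05 and 1 was called lower, where 299 genes were called lower over all genes. Without CTRL 3, 9 were below 0 and 7 above. The unadjusted count was 0 without CTRL 3 or without RbpjΔEC 1.

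Of 21 transactivators and promoter factors, 15 were above 0 and 6 below, with a median of 0.13, and 6 stood above 0 and 0 below by unadjusted p below 0.05, where 8.88% of all tested genes were higher and 8.62% lower. Irf1, an interferon-regulated factor that binds class I promoters, had 240.1, 269 and 252 CPM in CTRL and 352, 363 and 315 CPM in RbpjΔEC. The groups did not overlap, and Irf1 rose by 0.44 on the log2 scale (standard error 0.0771, edgeR quasi-likelihood test, Benjamini-Hochberg adjusted p = 0.0246). It was the only gene of the list called in that test, 1 higher of 21, where 0.575% of all tested genes were called higher. Calls in the list were 3 higher without CTRL 2, 2 without RbpjΔEC 3, 2 with DESeq2 and 5 with no low-count filter. Over all genes those fits called 401, 188, 262 and 717 higher. Without any other library 0 of the list were called. With each library left out, the Benjamini-Hochberg adjusted p of Irf1 from edgeR was between 0.00668 and 0.127, and it passed only without CTRL 2 or without RbpjΔEC 3. The median of the list was 0.08 without CTRL 1.
Nfkb2, an NF-kB subunit, had 86.7, 82.5 and 63.4 CPM in CTRL and 117, 126 and 90.1 CPM in RbpjΔEC, without overlap, and a log2 fold change of 0.52 (edgeR quasi-likelihood test, Benjamini-Hochberg adjusted p = 0.148). Irf8 stood at 0.38 (adjusted p = 0.169 in the same edgeR test).

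Of 10 interferon receptors, kinases and their inhibitors, 6 were above 0 and 4 below, with a median of 0.12. Socs1, an inhibitor of interferon signalling, had 17.3, 26.4 and 19.9 CPM in CTRL and 35.5, 40.4 and 32.4 CPM in RbpjΔEC. The groups were apart, and Socs1 rose by 0.77 on the log2 scale (edgeR quasi-likelihood test, Benjamini-Hochberg adjusted p = 0.0468). It was the only 1 of 10 called in that test, where 0.575% of all tested genes were called higher. At an unadjusted p below 0.05, 3 were higher and 0 lower, where 8.88% of all tested genes were higher. Calls in the list were 3 higher without RbpjΔEC 3 or with no low-count filter, and 2 with DESeq2. Over all genes those fits called 188, 717 and 262 higher. The list had 1 call without CTRL 2 and 0 without any other library. With each library left out, the Benjamini-Hochberg adjusted p of Socs1 from edgeR was between 0.00419 and 0.193, and it passed only without CTRL 2 or without RbpjΔEC 3. Ifnlr1 (0.74, adjusted p = 0.1003) and Socs3 (0.55, adjusted p = 0.155) were above 0 without passing the edgeR test with Benjamini-Hochberg adjustment.
Of 24 interferon-stimulated genes outside the pathway, 16 were above 0 and 8 below, with a median of 0.07. In edgeR's test 0 passed the adjusted threshold, while 6 stood higher and 2 stood lower by unadjusted p below 0.05 (8.88% and 8.62% of all tested genes). The 6 became 2 without CTRL 1 and 3 without RbpjΔEC 2 or without RbpjΔEC 3. Calls in that list were 3 higher and 1 lower without CTRL 2, 4 higher with no low-count filter and 1 higher with DESeq2. In either direction those fits called 700 of 19154, 1436 of 38324 and 584 of 38324 genes. Mx2, an antiviral GTPase, had 18.7, 32.3 and 26.1 CPM in CTRL and 41.8, 40.5 and 44.6 CPM in RbpjΔEC, without overlap (edgeR quasi-likelihood test, Benjamini-Hochberg adjusted p = 0.0923). Cxcl10, a chemokine for T cells, had 5.68 ± 0.841 and 8.53 ± 0.920 CPM (SD, n = 3 each, adjusted p = 0.103 from the same edgeR test). Ifitm3, which blocks virus entry, had 191 ± 15.0 and 162 ± 6.12 CPM (SD, n = 3 each, adjusted p = 0.130 from edgeR's test), lower in every RbpjΔEC library.

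**Figure D4:**
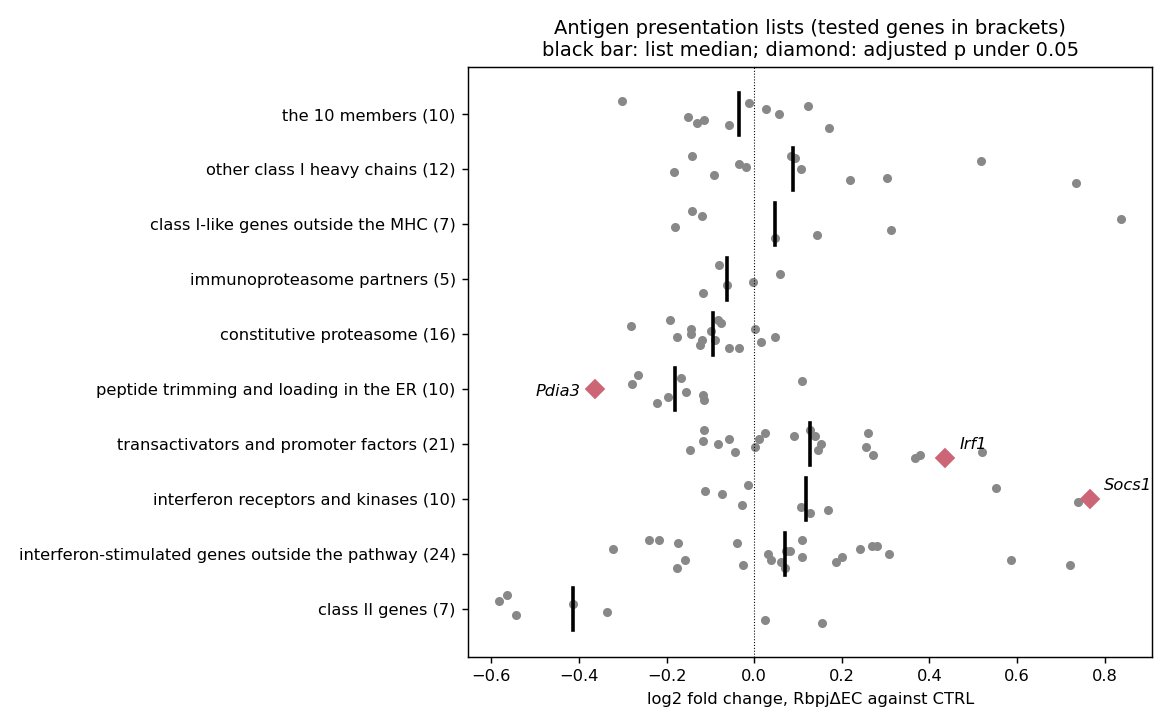
Log2 fold change of RbpjΔEC against CTRL (x axis, log2 units) for every tested gene of the 10 members and of 9 further lists of the pathway, 1 point per gene, with the list median as a black bar and genes at an adjusted p under 0.05 as diamonds. Only Pdia3 (lower), Irf1 and Socs1 (higher) are diamonds, and the median runs from -0.41 for class II genes to 0.13 for transactivators.

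Class II genes, which antigen-presenting leukocytes carry at high levels, were set beside class I. Of 10 listed, 7 were tested, 2 above 0 and 5 below with a median of -0.41, and 0 were called. At an unadjusted p below 0.05, 1 was lower, where 8.62% of all tested genes were lower. That count was 0 without CTRL 1 or CTRL 2, 3 without CTRL 3 or RbpjΔEC 1, 2 without RbpjΔEC 3 and 3 with limma-voom. With no low-count filter 2 of 10 were called lower, where 719 of 38324 genes were called lower. H2-Ab1 had 103, 96.2 and 80.8 CPM in CTRL and 74.0, 81.6 and 54.7 CPM in RbpjΔEC, with CTRL 3 and RbpjΔEC 2 in overlap (log2 fold change -0.41, edgeR quasi-likelihood test, Benjamini-Hochberg adjusted p = 0.221). Leukocytes carry class I at high levels too. Of 22 leukocyte markers, 7 were tested, Cd3d and Cd3e were at 0 in every library, and the list summed to 18.6 to 23.9 CPM in CTRL and 26.7 to 33.1 CPM in RbpjΔEC. Cd68, a lysosomal protein of macrophages, had 9.97 ± 2.71 and 24.05 ± 1.70 CPM (SD, n = 3 each, edgeR quasi-likelihood test, Benjamini-Hochberg adjusted p = 0.0154). Without CTRL 3, RbpjΔEC 1 or RbpjΔEC 2, 0 genes of the leukocyte list were called higher. Of the 7 tested, 1 was higher and 2 lower at an unadjusted p below 0.05 in edgeR's test. With no low-count filter 1 of 20 was called higher and 4 lower, where 717 of 38324 genes were called higher and 719 lower. DESeq2, and edgeR without RbpjΔEC 3, each called 1 higher and 1 lower. Without Cd68 the other 21 summed to between 6.36 and 16.9 CPM in CTRL and between 4.03 and 8.01 CPM in RbpjΔEC. The pan-leukocyte gene Ptprc had 3.92, 1.16 and 2.70 CPM in CTRL and 0.535, 0.739 and 1.597 CPM in RbpjΔEC. The part of these markers in the values of the class I genes was not tested.

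By the root mean square distance between centred log2 CPM values over the 6 libraries, in a pool of 128 genes of the pathway and marker lists without the members, the profile nearest to H2-D1 was that of Calr (0.015). Psmb10 was nearest to Psmb8 (0.028), Rela to Tap2 (0.035), Tie1 to H2-T23 (0.040), Cdh5 to Tapbp (0.055), Erap1 to B2m (0.058), H2-Q7 to Tap1 (0.060), Nfkb1 to H2-K1 (0.065), Hspa5 to H2-Q4 (0.070) and Gbp4 to Nlrc5 (0.108). Among the members themselves Tap2 was nearer to H2-K1 (0.055) than Nfkb1 was. With 6 libraries in the same design, these distances describe likeness only. Nlrc5 and Gbp4, an interferon-induced GTPase, were both highest in CTRL 2 among the controls.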

How the data were processed

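RNA from sorted kidney ECs of 3 CTRL and 3 RbpjΔEC mice was sequenced, 1 library per mouse. Per the submitters' processing notes and the study's methods, the authors trimmed paired 38-base reads with Trim Galore 0.6.4, aligned them with STAR 2.6.1d to GRCm38.p6 and deposited whole-number counts per gene from featureCounts (Subread 1.6.4), not normalized. Replicates were separate mice, and no 2 libraries held identical counts.
Counts were scaled with TMM and compared by edgeR 4.0.16 in R 4.3.3 (estimateDisp, robust glmQLFit, glmQLFTest). Adjustment after Benjamini-Hochberg covered the 18438 genes that filterByExpr kept, at 0.05. Alternatives were DESeq2 1.42.0, limma 3.58.1 (voom), other scalings and filters, the replicate number as a block, and each library left out. The script was tested on simulated counts. Positions and exonic lengths came from another GENCODE release on GRCm38 than the one counted, so single positions can differ. Members, lists and tests were chosen with earlier results of these data known. Genes named are the members, the immunoproteasome partners, the heavy chain genes not analysed and the genes called or with the 3 smallest p in each list. The genes of the proteasome ratios and the nearest profiles are named too. Others (Ptprc, Cd3d, Cd3e, Rbpj, Hey1, Lrp2, Slc34a1, Cubn and Ddr1) were named after their values were seen.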

Additional observations from a re-analysis of the deposited data

How the results depend on the processing

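Of 130 values of the members under alternatives, 121 kept their sign and their side of the threshold, 7 changed sign and 2 crossed it. The crossings were B2m at -0.30 with DESeq2 (adjusted p = 0.0455) and at -0.29 with no low-count filter in edgeR's quasi-likelihood test (adjusted p = 0.00347 with Benjamini-Hochberg adjustment), which made 1 member called lower in each. Tap2 changed sign to 0.030 with library size alone, 0.016 without CTRL 1 and 0.034 without RbpjΔEC 3 (range without 1 library -0.049 to 0.034), H2-K1 to -0.026 without CTRL 3 and -0.058 without RbpjΔEC 2 (-0.058 to 0.094). Without CTRL 3 Tap1 changed to -0.025 (-0.025 to 0.13) and Nlrc5 to -0.031 (-0.031 to 0.35). Under library size alone, the median over all tested genes was 0.05 in place of 0.01, and that of the members 0.01 in place of -0.04. Over all genes, 106 higher and 103 lower calls became 262 and 322 with DESeq2 and 717 and 719 with no filter, and without 1 library they ranged from 7 to 401 and from 13 to 333. The lists' 2 higher calls became 6 with DESeq2 and 13 with no filter, and 0 to 8 without 1 library. Their 1 lower call became 2 with DESeq2, 4 with no filter and 0 with library size alone or limma-voom, and 0 to 4 without 1 library. The median of the transactivators, 0.13, was 0.17 with library size alone and 0.077 to 0.12 without 1 library. Without 1 library in turn, the median ranged from -0.08 to 0.01 for the members, 0.02 to 0.20 for the other heavy chains, -0.05 to 0.19 for the class I-like genes, -0.10 to -0.02 for the immunoproteasome partners, -0.18 to -0.03 for the constitutive proteasome, -0.23 to -0.15 for the ER list, 0.07 to 0.12 for the interferon receptors, 0.03 to 0.11 for the interferon-stimulated genes and -0.54 to -0.26 for class II. The cause of these shifts was not tested.

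The labels give no pairing of the mice by replicate number. Same-numbered libraries correlated at 0.0231, 0.00916 and 0.00544 in their deviations from the group means, which cannot exclude a pairing. With the replicate number as a block, 166 genes were higher and 178 lower over all genes, with 6 higher and 4 lower in the lists. The 4 were class II genes. Of the 6, 1 was another heavy chain, 2 were transactivators, 2 were of the interferon receptor list and 1 was an interferon-stimulated gene. Pdia3 was no longer called (adjusted p = 0.0517, edgeR with Benjamini-Hochberg adjustment). B2m had an adjusted p of 0.104 in that edgeR fit with Benjamini-Hochberg adjustment, and 0 members were called.

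With 3 mice a group, the intervals of the members span 0.31 to 0.84 log2 units, so small differences were not detectable here.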
